A study of Mus musculus with 160 samples.

Results

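The genes described here make, carry, sense and clear retinoic acid, and they were followed cell by cell in marrow stroma of young and old mice. The 9 genes were fixed by name as 2 enzymes that oxidise retinol (Adh1 and Rdh10), 2 that oxidise retinal (Aldh1a1 and Aldh1a2), the plasma carrier Rbp4, the receptors Rara, Rarb and Rarg, and the clearing enzyme Cyp26b1. They stand among 22866 distinct gene names, and each of the 9 had a row of its own. The genes were chosen by reading earlier results of these cells, in which Aldh1a2 had the highest difference of mean log2 level toward old cells after Xist, and Adh1 was among the lowest ratios of mean FPKM. The differences between the ages are therefore given as a description.

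The cells came from C57BL/6J bone marrow. They were sorted for the surface proteins CD140a (platelet-derived growth factor receptor alpha) and LepR (leptin receptor) and against CD45, Ter119 and CD31, the marks of white blood, red blood and endothelial cells. No genetic change or treatment is named for either age. The young group held 82 cells from mice aged 9 weeks by the sample labels (10 weeks in the protocol), and the old group 78 cells from mice aged 24 months (2 years in the protocol). The labels do not tie cells to animals. Each age thus counts as 1 sample, no difference between the ages has a replicate check, and no test was made. Bounds beside a share are its 95% limits by the exact Clopper-Pearson method, which take in counting error alone.

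Retinoic acid is made from vitamin A in successive steps. Alcohol and retinol dehydrogenases oxidise retinol to retinal, and the retinal dehydrogenases of the Aldh1a family oxidise retinal to retinoic acid. The acid binds the nuclear receptors RARα, RARβ and RARγ, which pair with retinoid X receptors on DNA, and enzymes of the Cyp26 family break it down. In stromal cells the pathway is known for its part in the choice between fat and bone fates and as a supply of retinoic acid to neighbouring blood cells.

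The expression values are FPKM (fragments scaled to transcript length and to mapped fragments), a level per length that can be compared between genes. A cell is said to list a gene at 1 FPKM or more. Young cells listed a median of 1114.5 named genes (range 129 to 2129) and old cells 1160 (range 193 to 2779). Summed over named genes, FPKM ran from 29652.5 to 6.72e+06 per young cell and from 22242.5 to 7.38e+06 per old cell. Read numbers were not given in the sources used here. A listing of 0 can be a failed estimate, since Gapdh, a gene of general metabolism, stood at 0 in 91 of the 160 cells while Actb was listed in 160. The gate was checked on its RNA. Lepr was listed in 78 young and 71 old cells, Pdgfra in only 28 and 30, and Ptprc (CD45) and Pecam1 (CD31) in 0. Of the cells, 0 young and 54 old listed Xist, and Y-linked RNA (4 genes read) in 34 young and 0 old cells. The protocol counts captured wells separately for each age. Age, sex-linked RNA and capture therefore cannot be told apart in any difference below.

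Promoter sequences show how differently these genes are built at their start sites, and they are given for the 2 enzymes that differ most between the ages and for Rarb and Cyp26a1, which hold a repeat of the kind that retinoic acid receptors bind. RefSeq windows of build GRCm38.p6, 250 bases before to 50 after each start, were found for 8 of the 9 genes and not for Rdh10. Each line below gives the 100 bases before the start, 5′ to 3′ on the gene's strand. Capitals mark a CCAAT box in Aldh1a2 and, in Rarb and Cyp26a1, a direct repeat with 5 bases between its half-sites. The half-sites searched were AGGTCA and AGTTCA as well as GGGTCA and GGTTCA. Cyp26a1 is the sister enzyme of Cyp26b1 and is shown only for the repeat.
Aldh1a2, chr9:71215689-71215788, plus strand: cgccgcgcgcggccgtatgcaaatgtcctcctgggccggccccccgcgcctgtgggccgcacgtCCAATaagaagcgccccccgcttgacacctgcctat
Adh1, chr3:138277485-138277584, plus strand: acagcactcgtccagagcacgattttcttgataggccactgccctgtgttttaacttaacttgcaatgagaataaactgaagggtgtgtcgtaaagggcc
Rarb, chr14:16575477-16575576, minus strand: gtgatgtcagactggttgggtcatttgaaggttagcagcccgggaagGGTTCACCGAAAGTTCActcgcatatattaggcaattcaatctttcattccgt
Cyp26a1, chr19:37697708-37697807, plus strand: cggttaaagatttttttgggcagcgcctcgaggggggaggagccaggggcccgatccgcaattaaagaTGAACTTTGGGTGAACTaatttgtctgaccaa

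The 250 bases before the Aldh1a2 start held 77.6% G and C, and those before Adh1 44.8%, against a median of 52.4% over 32851 windows. The CCAAT box of Aldh1a2 lay at -36 to -32, and 37.4% of all windows hold such a match on either strand. The repeat lay at -53 to -37 in Rarb and, on the opposite strand, at -32 to -16 in Cyp26a1. It occurred in 32 of the 32851 windows (0.0974%, both strands searched), and Rarb was the 1 gene of the 9 that held it. No such letters stood in the windows of Aldh1a2, Adh1, Rara, Rarg, Rbp4, Aldh1a1 or Cyp26b1.

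Among the enzymes and receptors, the ages held different leading genes. Adh1 was the member listed in most young cells (31 of 82) and Aldh1a2 the member listed in most old cells (48 of 78). The receptor listed most often at both ages was Rarg, whereas Rara and Rarb were listed in few cells. Aldh1a1 and Cyp26b1 stood at 0 in every cell of both ages. The plot of single-cell levels shows these patterns.

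**Figure D1:**
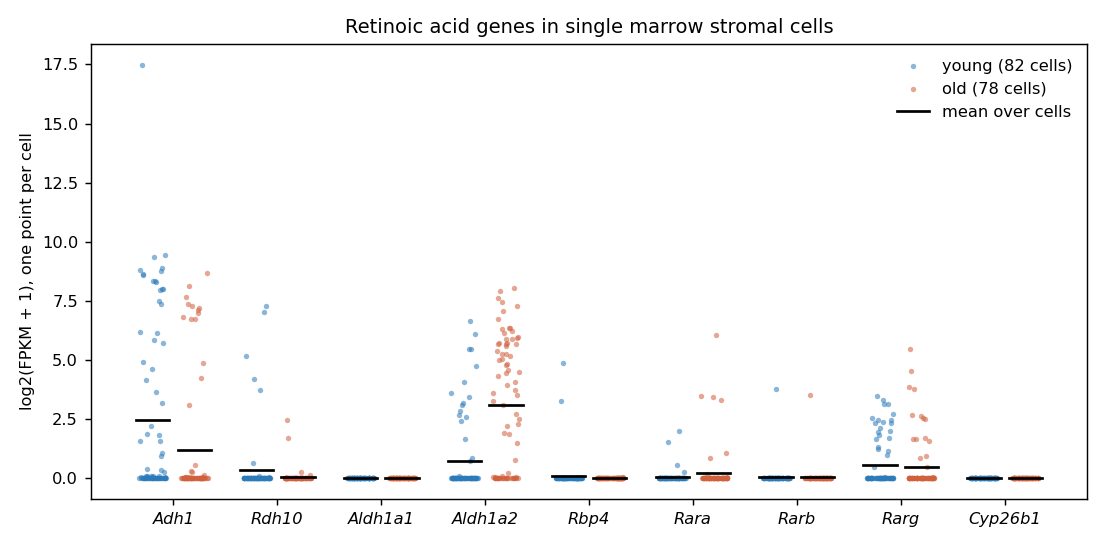
Level of each of the 9 genes as log2(FPKM + 1) on the vertical axis, 1 point per cell, for 82 young and 78 old cells, with horizontal bars at the mean over cells. Old cells stand higher in Aldh1a2 (means of 3.09 and 0.73), young cells in Adh1 (2.45 and 1.21), and Aldh1a1 and Cyp26b1 lie at 0 throughout.

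Aldh1a2, the retinal dehydrogenase that makes most of the retinoic acid of the embryo, was listed in 15 of 82 young cells (18.3%, bounds 10.6 and 28.4) and in 48 of 78 old cells (61.5%, bounds 49.8 and 72.3). Its FPKM had a lowest value of 0, a median of 0 and a highest value of 98.6 in young cells. In old cells the lowest was 0, the median 9.55 and the highest 266. The ranges overlap, but the upper part is filled by old cells. At 50 FPKM or more stood 2 young and 21 old cells, and at 100 FPKM or more 0 young and 7 old cells. Cells that listed the gene also carried more of it when old: the median over listing cells was 9.82 FPKM in young cells (2.17 to 98.6) and 36.8 FPKM in old cells (1.84 to 266). The mean of log2(FPKM + 1) over young cells was 0.73 and over old cells 3.09, a difference of 2.37, the second highest of the 3829 genes listed in at least 10% of the cells of either age, after Xist. No single cell set this value, since the highest cell held 8.85% of the summed FPKM.

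The number of genes listed in a cell moved with Aldh1a2. Old cells that listed it had a median of 1341.5 genes and old cells that did not had 529.5. In young cells the medians were 1314 and 1055. Among cells at or above the median gene number of their age, 34 of 39 old cells (87.2%, bounds 72.6 and 95.7) and 12 of 41 young cells (29.3%, bounds 16.1 and 45.5) listed Aldh1a2. Below that median it was 14 of 39 old cells (35.9%, bounds 21.2 and 52.8) and 3 of 41 young cells (7.32%, bounds 1.54 and 19.9). The share was higher in old cells within both sets, and within each age higher in the cells with more genes. The difference of mean log2(FPKM + 1) was 3.24 in the first set and 1.49 in the second.

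Adh1, a class I alcohol dehydrogenase that oxidises ethanol and retinol, showed the opposite order. It was listed in 31 of 82 young cells (37.8%, bounds 27.3 and 49.2) and in 14 of 78 old cells (17.9%, bounds 10.2 and 28.3). The lowest, median and highest FPKM were 0, 0.0453 and 183894 in young cells. In old cells they were 0, 0 and 409. The highest young value came from 1 cell that listed 496 genes, in which Adh1 alone made 21.5% of the summed FPKM of named genes. That cell held 95.9% of the Adh1 FPKM of all 160 cells, so mean FPKM is no measure of this gene. The next highest young cell had 685 FPKM. Cells that listed Adh1 carried it at similar levels at both ages, with a median of 162 FPKM in young (from 1.11) and 132 FPKM in old cells (from 7.45). The mean of log2(FPKM + 1) over young cells was 2.45 and over old cells 1.21, a difference of -1.24, and -1.05 without the highest cell.

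Adh1 also varied with gene number, less so than Aldh1a2 in old cells. It was listed in 19 of 41 young and 11 of 39 old cells at or above the median gene number, and in 12 of 41 young and 3 of 39 old cells below it. The difference of mean log2(FPKM + 1) was -1.25 and -1.23 in these sets. The share was higher in young cells in both.

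**Figure D2:**
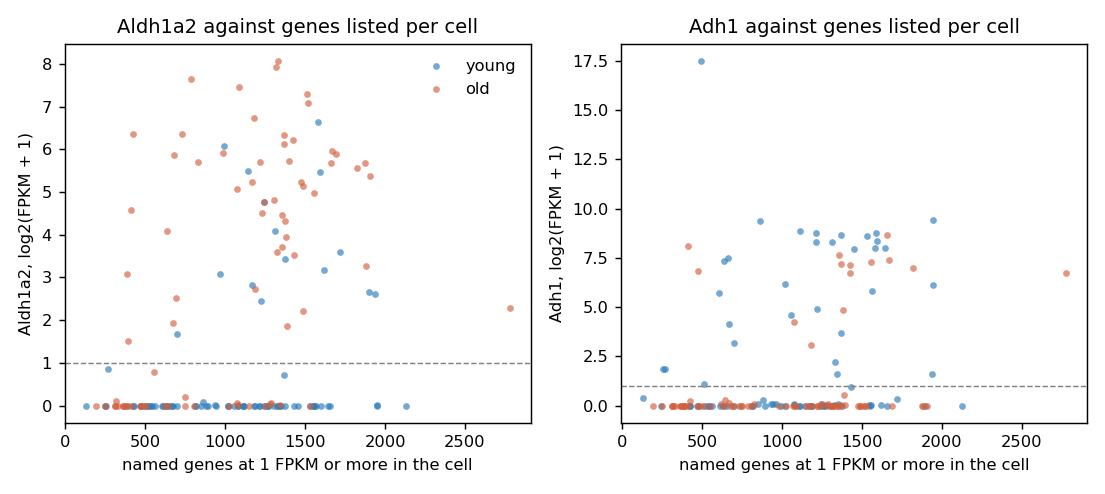
Level of Aldh1a2 (left) and Adh1 (right) as log2(FPKM + 1) against the number of named genes listed in the cell, 1 point per cell, young and old; the dashed line marks 1 FPKM. Old cells without Aldh1a2 gather at low gene numbers (median 529.5), and the Adh1 value of 183894 FPKM belongs to a young cell with 496 genes.

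Rdh10, the membrane retinol dehydrogenase that is needed for retinoic acid in the embryo, was rarely listed. It stood in 5 young cells (6.1%, bounds 2.01 and 13.7) at 156, 128, 35.3, 17.1 and 12.2 FPKM, and in 2 old cells (2.56%, bounds 0.312 and 8.96) at 4.56 and 2.23 FPKM. All 5 young values exceeded both old ones in FPKM. The lowest of them lay in a cell whose named genes summed to 853565 FPKM, against a median of 74511 over all cells. Rdh10 made 0.00143% of the sum there, and 0.00441% and 0.00556% in the 2 old cells, so the order does not hold as a share. With so few cells the bounds of the shares overlap, and the difference of mean log2(FPKM + 1) was -0.29.

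Aldh1a1, the cytosolic retinal dehydrogenase of liver and other adult tissues, was listed in none. Counting 3 cells as the most that a count of 0 allows, 0 of 82 young cells permits a listing share of up to 3.66% and 0 of 78 old cells one of up to 3.85%. The exact upper bounds drawn in the plot of shares are 4.4% and 4.62%. Both limit cells at 1 FPKM or more and not cells that express the gene, since a 0 can be a failed estimate. Every cell had an FPKM of exactly 0. Aldh1a3, the remaining enzyme of this step, was listed in 1 young and 1 old cell. Of the retinal dehydrogenases, Aldh1a2 was therefore the enzyme that these cells listed in number.

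Rbp4 encodes the protein that carries retinol in plasma. It was listed in 2 young cells, at 27.9 and 8.6 FPKM, and in 0 old cells; the highest old value was 0.0321 FPKM. Both young cells also listed Adh1.

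Rarg, the receptor RARγ, was listed in 20 of 82 young cells (24.4%, bounds 15.6 and 35.1) and 12 of 78 old cells (15.4%, bounds 8.21 and 25.3). Its FPKM ran from 0 over a median of 0 to a highest value of 9.98 in young cells, and from 0 over a median of 0 to 42.6 in old cells. More young cells listed it, but the 4 cells at 10 FPKM or more were old. Of these 4, the cell at 22.1 FPKM had a summed FPKM of named genes of 7.38e+06, and Rarg made only 0.000299% of it. That cell also enters the mean FPKM of old cells given below. The median over listing cells was 4.1 FPKM in young and 5.03 FPKM in old cells. The difference of mean log2(FPKM + 1) was -0.10, close to the middle of all genes (median -0.00, quartiles -0.25 and 0.24), while mean FPKM was higher in old cells (1.57, against 1.07 in young). Listing cells had a median of 1370.5 genes in young and 1337.5 in old cells, against 976 and 1074 in the others.

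Rara, the receptor RARα, was listed in 2 young cells (2.44%, bounds 0.297 and 8.53) at 3.01 and 1.9 FPKM. In old cells it was listed in 5 (6.41%, bounds 2.11 and 14.3), at 65.9, 10.1, 9.89, 8.78 and 1.12 FPKM. Rarb, the receptor whose promoter holds the repeat printed above, was listed in 1 young cell at 12.6 FPKM and in 1 old cell at 10.5 FPKM. No young cell and 2 old cells listed 2 or more of the receptors. Any of the 3 was listed in 23 young cells (28%, bounds 18.7 and 39.1) and 16 old cells (20.5%, bounds 12.2 and 31.2).

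Cyp26b1, which hydroxylates retinoic acid for clearance, was at 0 FPKM in all 160 cells, and Cyp26a1 and Cyp26c1 were too. For each of them both kinds of limit given for Aldh1a1 hold, with the same restriction.

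In order of share, young cells ran from Adh1 over Rarg (24.4%), Aldh1a2 (18.3%) and Rdh10 (6.1%) to Rbp4 and Rara (both 2.44%) and Rarb (1.22%), and the bounds of neighbours in this order overlap. Old cells ran from Aldh1a2 (61.5%) over Adh1 (17.9%), Rarg (15.4%), Rara (6.41%) and Rdh10 (2.56%) to Rarb (1.28%). There the bounds of Aldh1a2 lie above those of Adh1, and all later neighbours overlap.

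**Figure D3:**
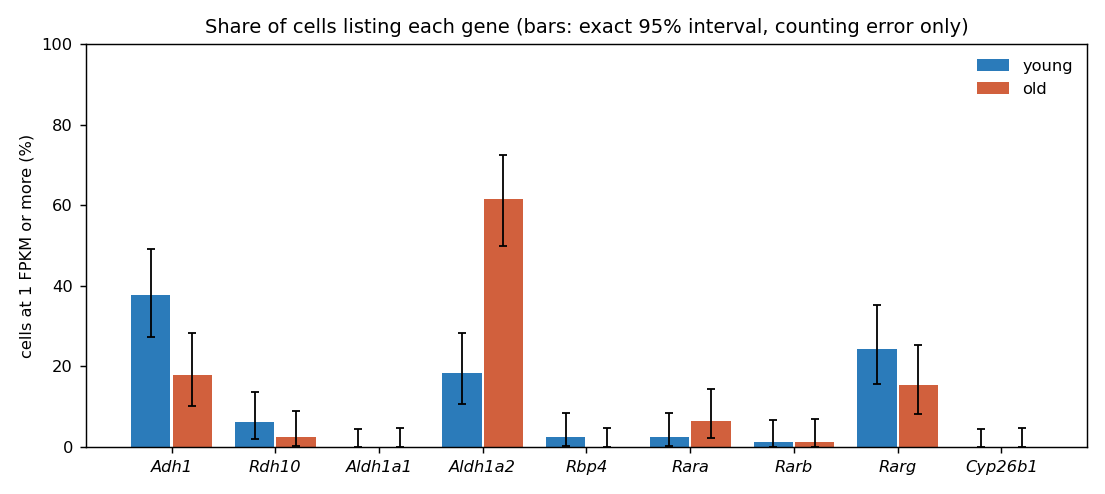
Percent of 82 young and 78 old cells that list each of the 9 genes at 1 FPKM or more, as bars from 0, with exact 95% intervals that cover counting error only. Aldh1a2 stands at 18.3% of young and 61.5% of old cells and Adh1 at 37.8% and 17.9%.

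Against all genes, 3 of the 9 members were listed in at least 10% of the cells of either age. With no replicates, a gene was counted by size alone, at a difference of mean log2(FPKM + 1) of 1 or more in either direction. Aldh1a2 was counted as higher in old cells, where 50 of 3829 genes (1.31%) were, and Adh1 as lower, where 66 (1.72%) were. With a pseudocount of 10 in place of 1, the Adh1 difference was -0.73, inside the limit. The genes were chosen on this same contrast, so nothing is read from the counts. Rarg was counted in neither direction. The other 6 members were listed in too few cells to enter.

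**Figure D4:**
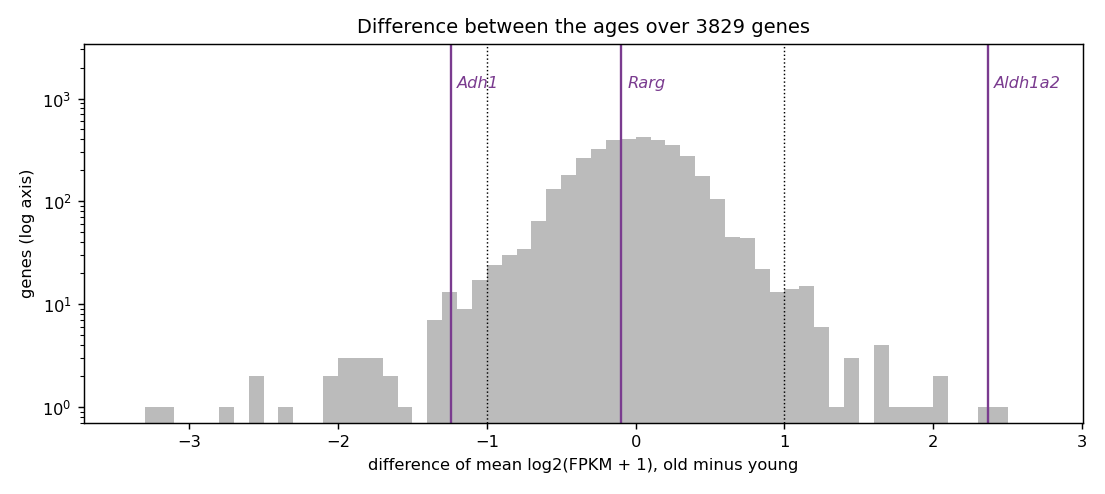
Number of genes (log axis) by difference of mean log2(FPKM + 1), old minus young, for 3829 genes, with Adh1 (-1.24), Rarg (-0.10) and Aldh1a2 (2.37) marked by solid lines and the size limits of -1 and 1 by dotted lines. Rarg lies in the middle of the distribution and the other two outside the limits.

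The steps of the pathway were also counted together within cells. An enzyme for the retinol step (Adh1 or Rdh10) was listed in 34 young cells (41.5%, bounds 30.7 and 52.9) and 16 old cells (20.5%, bounds 12.2 and 31.2). An enzyme for the retinal step was listed in 15 young and 48 old cells, all through Aldh1a2. Both steps were listed together in 7 young cells (8.54%, bounds 3.5 and 16.8) and 13 old cells (16.7%, bounds 9.18 and 26.8). The retinol step, counted by these 2 genes alone, was found without the retinal step in 27 young and 3 old cells. The reverse was found in 8 young and 35 old cells. Cyp1b1, which can also oxidise retinol, was not counted in this step. It was listed in 15 of the 15 young and 36 of the 48 old Aldh1a2 cells, so the reverse count does not mean that no retinol-oxidising enzyme was listed. Both steps and a receptor were listed in 4 young and 3 old cells. In 36 young cells (43.9%, bounds 33 and 55.3) and 24 old cells (30.8%, bounds 20.8 and 42.2) none of the 9 genes was listed.

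Overlaps between members differed in the shares they made. In old cells 12 cells listed both Adh1 and Aldh1a2, which was 85.7% of the Adh1 cells and 25% of the Aldh1a2 cells. In young cells 6 listed both, 19.4% of the Adh1 cells and 40% of the Aldh1a2 cells. Among old cells at or above the median gene number, 11 of 11 Adh1 cells listed Aldh1a2, where 34 of all 39 such cells did. Rarg was shared with Aldh1a2 in 8 young cells (53.3% of the Aldh1a2 cells, 40% of the Rarg cells) and 9 old cells (18.8% and 75%). It was shared with Adh1 in 11 young cells (35.5% of the Adh1 cells, 55% of the Rarg cells) and 2 old cells (14.3% and 16.7%). The 5 old cells with Rara all listed Aldh1a2, as did both cells with Rarb. Aldh1a2, Adh1 and Rarg were each listed in a larger share of the cells with more listed genes, at both ages, and the part of gene number in these overlaps was not tested.

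**Figure D5:**
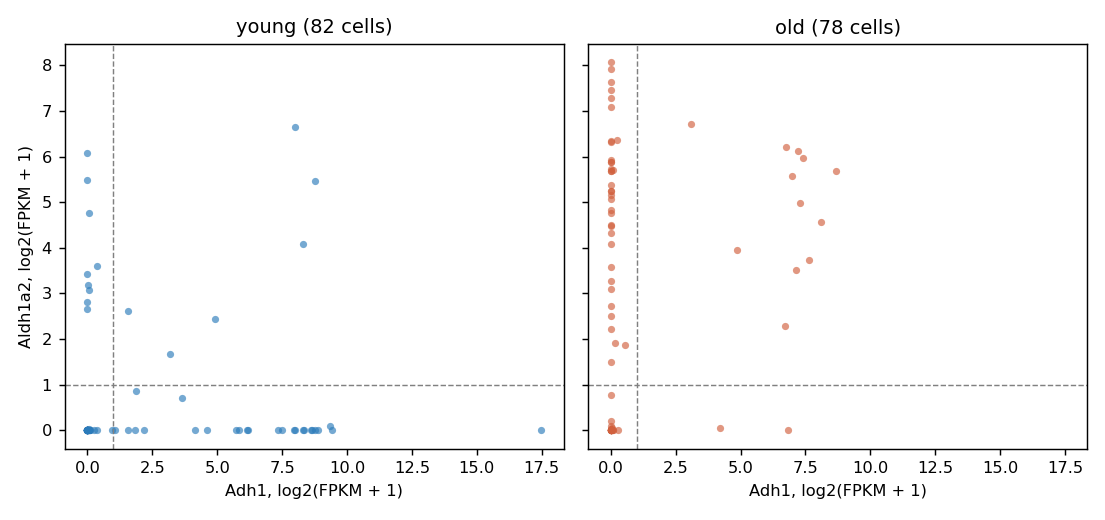
Aldh1a2 (vertical) against Adh1 (horizontal), both as log2(FPKM + 1), 1 point per cell, young cells left and old cells right; dashed lines mark 1 FPKM. In the upper right field lie 6 young and 12 old cells, and the lower right field (Adh1 without Aldh1a2) holds most Adh1 cells of the young and 2 of the old.

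The wider pathway held a few genes of many cells. Of 64 further genes of synthesis, transport, receptor function and clearance, 63 had a row and 16 were listed in at least 10% of the cells of either age. Of these, 0 passed the size limit, where 1.31% of all genes did as higher and 1.72% as lower in old cells, so few would be met in a list of this size and the 0 is not a result about the pathway. Their median difference was -0.21, against -0.00 over all 3829 genes.

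Among the dehydrogenases and reductases, 4 of 21 were measured in this sense. Dhrs3, which turns retinal back into retinol, was listed in 34 young (41.5%) and 29 old cells (37.2%), with a difference of mean log2(FPKM + 1) of 0.18. Rdh13 was listed in 14 young and 8 old cells (difference -0.37), Dhrs7 in 15 and 9 (-0.39) and Adh5, the widely expressed class III alcohol dehydrogenase, in 10 and 6 (-0.25). Like Adh1, these 3 had negative differences, and each stayed far from the size limit.

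Among the genes of uptake, storage and carriage, Lpl, the lipoprotein lipase that releases lipid from circulating particles, was listed in 76 young and 65 old cells. Its median level was 49.3 FPKM in young and 60.6 FPKM in old cells, while the difference of mean log2(FPKM + 1) was -0.20. The retinol receptor Stra6, the storage enzyme Lrat and Crabp1 were listed in 0 cells, and Crabp2 in 1 old cell. Lrp1, a receptor for lipoprotein remnants, was listed in 21 young and 16 old cells.

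Of the receptor partners and coregulators 8 of 17 were measured. The partners of the retinoic acid receptors themselves were rare, with Rxra in 2 young and 2 old cells, Rxrb in 0 and 1 and Rxrg in 0 of either. The corepressor Ncor1 was listed in 40 young (48.8%) and 27 old cells (34.6%), a difference of -0.56, and the acetyltransferase gene Ep300 in 18 and 8 (-0.49). Kmt2e, in the table under its older symbol Mll5, stood in 37 and 33 (-0.02). Crebbp stood in 24 and 20, Ncoa1 in 20 and 16 and Ncoa3 in 19 and 21. In the clearance group, Cyp1b1, an enzyme that can also oxidise retinol, was listed in 67 young and 51 old cells (difference -0.41).

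Genes known to respond to retinoic acid were set beside the enzymes. Of 36 such genes 11 were measured, 6 with positive and 5 with negative differences, and their median difference was 0.01. None passed the size limit, where 1.31% of all genes did as higher and 1.72% as lower in old cells. In a list of 11 this is not a result about the responding genes. Dhrs3, given above, is among them. Rarres2, which encodes the secreted protein chemerin, was listed in 52 young and 41 old cells (difference -0.39), and Egr1, an immediate early gene also driven by many other signals, in 65 and 64 (0.42). Tgm2, a transglutaminase, stood in 6 young and 10 old cells (0.24), and Hoxa5 in 10 and 9 (0.01). Of the old Tgm2 cells 5 listed Aldh1a2, and of the 29 old Dhrs3 cells 17 (58.6%, against 61.5% of all old cells).

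Aldh1a2 also marks mesothelium, the lining of body cavities, so a list of 10 mesothelial and epicardial genes was read. At least 1 of them was listed in 5 young and 1 old cells. Tbx18 was listed in 3 young cells, Upk1b in 2 young cells and Gpm6a in 1 old cell. Wt1, Msln, Upk3b, Krt19, Krt8, Lrrn4 and Tcf21 were listed in 0 cells. The summed level of the list had a median of 0 FPKM at both ages and ran to 117 in young and 4.41 in old cells. Of 10 marrow stroma genes 10 were listed, with a summed median of 2588 FPKM (53.6 to 45133) in young and 1799 FPKM (1.35 to 70925) in old cells. Of these 10, Vcam1, Kitl and Ibsp were past the size limit toward young cells (differences of -2.55, -1.38 and -1.25). Over all 3829 genes, 1.72% were. The list was chosen with earlier results of these data known, so nothing is read from this count. Differences were negative for 8 of the 10, and positive, as for Aldh1a2, for Foxc1 (0.76) and Pdgfra (0.07). The part of the stroma genes in the difference of Aldh1a2 was not tested. Of 10 fibroblast genes 5 appeared (some in 28 young, 22 old cells), with a summed median of 0.00621 FPKM (young) and 0 (old). Lum was listed in 22 young and 11 old cells (difference -0.67) and Gsn in 8 and 14 (0.15). Mfap5 stood in 2 old cells, and Cd34 and Ly6a in 1 old cell each. Pi16, Dpt, Clec3b, Col14a1 and S100a4 were listed in 0.

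Markers of other cells were read as well. Of the 10 hematopoietic genes, 9 were listed in 0 cells, and Fcer1g, the common gamma chain of Fc receptors, stood in 2 young and 9 old cells (difference 0.72; the summed level ran to 91.3 FPKM in young and 13887 in old cells). Erythroid genes appeared in 1 young and 1 old cell, with 6 of 8 at 0 cells, and endothelial genes in 1 young cell, with 8 of 9 at 0 cells. Osteoblast genes stood in 50 young and 55 old cells, largely through Runx2 (48 and 51), summed over its own row and one it shares with Supt3. Col1a1 stood in 9 and 14 cells, Alpl in 7 and 5, Sp7 in 4 and 4, Bglap in 0 and 1, and Mepe and Phospho1 in 0. Schwann cell genes stood in 36 and 38, and S100b among them in 19 and 27 (difference 0.76). Mature adipocyte genes stood in 79 and 68, largely through Adipoq, and Fabp4, a fatty acid carrier, in 9 and 0 (difference -0.73). Chondrocyte genes stood in 6 and 8 cells and pericyte genes in 6 and 2. The part of these lists in the differences of Aldh1a2 and Adh1 was not tested.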

How the data were processed

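FPKM per gene and cell were deposited by the authors in 1 table. Cufflinks 2.1.1 and build mm9 are given per the submitters' processing notes, and cells were captured on Fluidigm C1 chips per the labels' protocols. How shared reads were divided is not given in the sources used here. Of 31199 rows, 7751 without a gene name were left out, and rows of the same name were summed. List genes without a row under their symbol were looked up under older symbols in the RefSeq table of GRCm38.p6. Aldh1a2 had 2 rows, the second above 0 in 1 cell (1.76 FPKM).

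The genes and all lists were chosen with earlier results of these data known. A cell lists a gene at 1 FPKM, and levels were compared as the difference of mean log2(FPKM + 1), pseudocount 1, which understates changes of genes at 0 in many cells. The named genes were the 9 members, of each other list its members past the size limit and its 2 members listed in the most cells, and for each member listed in at least 20% of the cells of each age the 5 genes most like it by Spearman's rho. Some further list genes were picked after their values were seen, and some genes the rule names are not reported here. The difference of mean log2(FPKM + 1) was run on resampled young cells in which chosen genes were multiplied by known factors. That check required only the direction of the change, which the factor sets. The other steps were not tested in this way. Python 3.11.15, numpy 2.4.6, pandas 2.3.3 and scipy 1.17.1 were used. Wells holding more than 1 cell were excluded under the microscope per the labels' protocols, and no doublet caller was run.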

Additional observations from a re-analysis of the deposited data

How the results depend on the processing

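No paired analysis was possible because the cell numbers of the labels only name cells within each age. In the settings tried, Aldh1a2 stayed higher in old cells and Adh1 in young cells in share and in mean log2. Counting any FPKM above 0, Adh1 stood in 58.5% of young and 30.8% of old cells. At 10 FPKM, Aldh1a2 stood in 8.54% of young cells. At or above the median gene number Aldh1a2 stood in 29.3% of young and 87.2% of old cells, and below it in 7.32% and 35.9%, with Adh1 in 7.69% of old cells there. Without cells under 50% of the median gene number Aldh1a2 stood in 75.9% of old cells. With a pseudocount of 10 the Adh1 difference was -0.73, inside the size limit. Counts of all genes past that limit depended on the measure. They were 155 higher and 228 lower with a pseudocount of 0.1, 5 and 10 with a pseudocount of 10, and 770 and 727 by the log2 ratio of mean FPKM. Without cells under 50% of the median gene number 86 genes were higher and 60 lower, of 4639, where over all cells 50 were higher and 66 lower. The cause was not tested. For Rarg, the log2 ratio of mean FPKM was 0.31 and the difference 0.14 in cells below the median gene number, both opposite in sign to the -0.10 over all cells. The unknown depth limits every share: a gene not listed may still be expressed.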

Other observations

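The aldehyde dehydrogenases outside retinoic acid synthesis were read beside Aldh1a2. Of 14 further family members 12 were listed in some cell and 3 in at least 10% of the cells of either age. Of these 3, 0 passed the size limit, where 1.31% of all 3829 genes did as higher and 1.72% as lower in old cells. In a list of 3 the 0 is not a result about the family. Aldh3a1, which clears aldehydes in the cornea and other epithelia, was listed in 8 young and 10 old cells (difference of mean log2(FPKM + 1), old minus young, 0.37). Aldh9a1 was listed in 11 and 10 (-0.05) and Aldh3b1 in 7 and 9 (-0.00), and Aldh2, the mitochondrial enzyme of ethanol breakdown, in 5 and 3.

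Genes whose levels ran most like a member were sought by Spearman's rho over cells, within each age, among 1137 genes listed in at least 20% of the cells of each age. No member reached 20% in both ages. At 15%, a limit chosen after the values were seen, 3 did. For Aldh1a2 the highest means of the young and old rho included those of Pmepa1 (0.27 over 82 young cells and 0.55 over 78 old cells), Lamb1 (0.36 and 0.43), Gnai2 (0.26 and 0.53) and Sf3b1 (0.36 and 0.40). The number of listed genes gave 0.28 and 0.53 with Aldh1a2 by itself. Held fixed for that number, Pmepa1 had 0.19 and 0.36 and Lamb1 0.28 and 0.27. For Adh1 the list was Rpl39 (0.28 and 0.43), Gapdh (0.35 and 0.30), 1810022K09Rik (0.28 and 0.35), Runx1t1 (0.35 and 0.26) and Caml (0.19 and 0.41). For Rarg it was Ppib (0.44 and 0.33), Psma4 (0.43 and 0.31), Rpl32 (0.43 and 0.31), Ndufa2 (0.50 and 0.21) and Fau (0.47 and 0.24). Gene number by itself gave 0.44 and 0.35 with Rarg, as high as these genes, and 0.25 and 0.28 with Adh1. Held fixed for it, Ppib had 0.27 and 0.17 and Psma4 0.31 and 0.21 with Rarg, and Rpl32 and Ndufa2 were no longer among the 5 highest. With Adh1, Rpl39 then had 0.17 and 0.34 and Gapdh 0.27 and 0.19, and Caml left the 5 highest. The protocol counts captured wells by age, the depth of the cells is unknown, and such weak values in sparse data single out no gene.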
